A study of Mus musculus with 8 samples.

Results

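Gene expression was compared between Dnmt3a+/- and wild-type (WT) cells in LT-HSCs, the long-term stem cells of mouse blood, that were sorted as Vwf+. The comparison took 4 of the 8 RNA-seq libraries of the study, which were the 2 Vwf+ libraries of each genotype, chosen by genotype and reporter fraction alone. The other 4 libraries were the matching Vwf− cells, which were used for the estimate of error and for a test of whether a genotype difference depended on the fraction. Cells of all groups were sorted as lineage-negative, with CD117, Sca1 and high CD150 and with low CD48, and the Vwf+ cells carried GFP from a Vwf reporter. The mice were 10 to 12 months old, and every library was a pool of 3 to 4 mice. In each group the pool of replicate 1 was of male and that of replicate 2 of female mice, so a replicate pair is also a pair of 1 sex. The labels give the genotype of the heterozygotes as Dnmt3a+/- or HET and do not describe the altered allele. They do not say whether the Vwf+ and Vwf− cells of a pool came from the same mice.

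Dnmt3a encodes a DNA methyltransferase that places methyl groups on CG dinucleotides that were unmethylated before, and heterozygous DNMT3A mutations are frequent in clonal haematopoiesis of older people. Von Willebrand factor, the product of Vwf, is an adhesive protein of platelets and endothelium. Stem cells that express a Vwf reporter sit at the top of the haematopoietic hierarchy and are biased toward megakaryocytes and platelets.

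Total counts of the 4 Vwf+ libraries ran from 21809278 to 28844349, and 17524 to 19381 genes had a count. Genes of stem cells were present in each Vwf+ library, with Kit at 815 to 883 CPM (counts per 1e+06 counts), Mecom at 288 to 339, Hlf at 365 to 480 and Slamf1, which encodes CD150, at 75.6 to 87.1. Cd48 stood at 0.0861 to 1.88 CPM. The Dnmt3a+/- female library stood apart in some genes of mature cells, among them the platelet chemokine gene Ppbp at 20.2 CPM against 0.301 to 1.53 CPM in the other 3. The eosinophil gene Prg2 stood at 34.9 CPM there against 0.526 to 2.2 CPM. Platelet and mature megakaryocyte markers summed to 451 CPM there against 264 to 309 CPM in the other 3. Markers of mast cells, basophils and eosinophils summed to 55.6 against 5.12 to 9.36 CPM. Markers of monocytes and macrophages summed to 257 against 239 to 259 CPM. Not every gene of mature cells set this library apart. The platelet gene Gp9 stood at 17.6 CPM in the female library of each genotype, and the neutrophil gene Ngp was highest in the Dnmt3a+/- male library, at 9.65 CPM. The WT female library stood apart in small nucleolar RNAs, which took 0.396% of its counts against 0.103% to 0.143% in the other 3. P-values rest on the spread left in all 8 libraries once group and replicate number are taken out, with 3 residual degrees of freedom. The estimate also borrows from other genes (prior degrees of freedom 16.7). The fit took the 8 libraries as independent. If the Vwf+ and Vwf− cells of a genotype and sex came from the same mice, the p-values rest on fewer independent pools than libraries. No group held more than 1 pool of a sex, so the spread between pools of like sex was not measured. Single mice were not resolved.

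Across 15917 tested genes, 6 differed between the genotypes (0.0377%), of which 5 rose in Dnmt3a+/- cells (0.0314%) and 1 fell (0.00628%). The genes that rose were Cfap74, Greb1, 5830444B04Rik, Plekhg3 and Zmynd15, and the gene that fell was Rec8. Their differences ran from 1.24 to 3.44 on the log2 scale in the higher direction, and Rec8 differed by −1.11. The test was the edgeR quasi-likelihood test with the replicate number as a block and Benjamini-Hochberg adjustment. Without the block no gene passed, each of the 6 then had an adjusted p of 1, and 363 genes had an unadjusted p under 0.05 (2.28%) against 942 with the block (5.92%). Of the 942 genes, 577 were higher (3.63%) and 365 lower (2.29%), and a threshold of 0.05 would let through 796 of 15917 genes on average if none differed.

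Each of the 6 genes lay outside the range of the other genotype in both Dnmt3a+/- libraries, as did 4482 of all tested genes (28.2%). Leaving out the WT female library left only Cfap74 past the threshold, and leaving out the WT male library gave 216 genes, 121 higher and 95 lower. Without the Dnmt3a+/- male library 29 genes passed, and without the Dnmt3a+/- female library 5 did. Cfap74 passed whichever of the 8 libraries was left out.

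**Figure D1:**
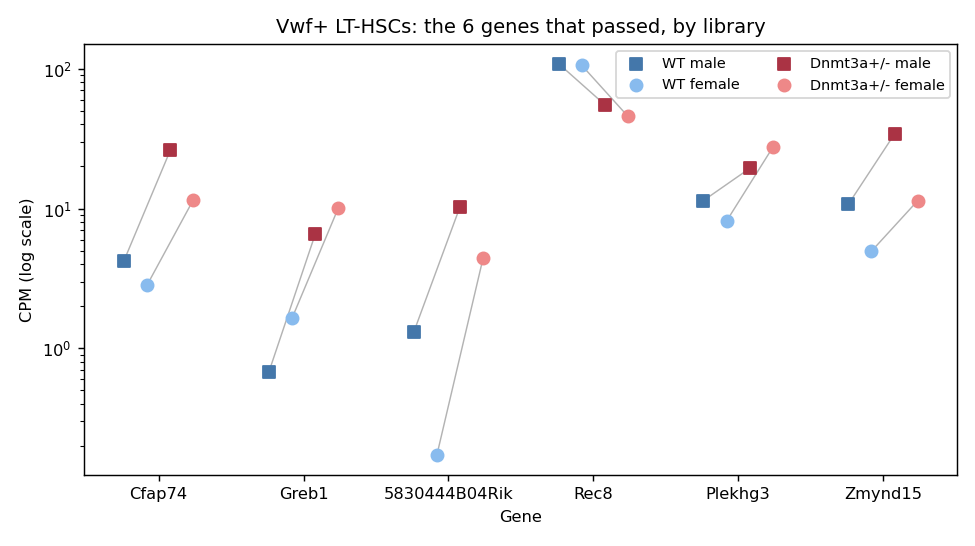
Level in CPM (y axis, log scale) of the 6 genes that passed in the 4 Vwf+ libraries (squares male, circles female, blue WT, red Dnmt3a+/-). Grey lines join the libraries of a replicate pair, and both lines of each gene run in 1 direction.

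Cfap74 (chromosome 4, 155409190 to 155466823, plus strand, GRCm38) encodes a protein of the central apparatus of motile cilia and flagella. It stood at 26.1 and 11.6 CPM in the Dnmt3a+/- male and female libraries and at 4.23 and 2.84 CPM in the WT male and female libraries. Both Dnmt3a+/- libraries were above both WT libraries, and within each genotype the male library was the higher. The log2 rise of Cfap74 was 2.33 ± 0.33 (SE, adjusted p = 0.00603), with 2.61 in the male pair and 2.00 in the female pair.

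The non-coding gene 5830444B04Rik (chromosome 4, 155398763 to 155421704, minus strand) overlaps Cfap74 on the opposite strand. It stood at 10.3 and 4.45 CPM in the Dnmt3a+/- male and female libraries and at 1.3 and 0.172 CPM in WT. Both Dnmt3a+/- libraries were above both WT libraries, and the log2 rise was 3.44 ± 0.52 (adjusted p = 0.0104). Whether counting used strand is not given in the sources used here, so reads of these overlapping genes cannot be told apart and the pair may be 1 signal. 5830444B04Rik did not pass without the WT female library (adjusted p = 0.164) or without the Vwf− Dnmt3a+/- male library (0.0527).

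Greb1 (chromosome 12, 16670615 to 16800886, minus strand) is best known as a gene induced by oestrogen in breast cells. It stood at 6.53 and 10.1 CPM in the Dnmt3a+/- male and female libraries and at 0.675 and 1.64 CPM in WT. Greb1 rose 7.55-fold, or 2.92 ± 0.41 on the log2 scale (SE, adjusted p = 0.00603), with 3.15 in the male pair and 2.58 in the female pair. The call was lost without the WT female library (adjusted p = 0.0811). Greb1 was the single member to pass among 15 tested genes of oestrogen receptor signalling and its targets, a list with a median log2 difference of −0.06. The coactivator gene Ncoa3 stood at 139 and 150 CPM in Dnmt3a+/- and at 130 and 122 CPM in WT (adjusted p = 0.894), and the receptor gene Gper1 at 3.03 and 1.52 against 3.78 and 3.66 CPM (adjusted p = 0.883).

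Rec8 (chromosome 14, 55618037 to 55625395, plus strand) encodes a cohesin subunit of meiosis. It stood at 55.3 and 45.6 CPM in the Dnmt3a+/- male and female libraries and at 109 and 106 CPM in WT. The 4 values formed a tight pair in each genotype, with the WT libraries near a common level. Rec8 fell by 1.11 on the log2 scale (SE 0.18, adjusted p = 0.0214), by 0.98 in the male pair and by 1.21 in the female pair. The call was lost when any of 3 Vwf+ libraries was left out, with adjusted p of 0.0894 without the Dnmt3a+/- male, 0.0912 without the Dnmt3a+/- female and 0.629 without the WT female library.

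Zmynd15 (chromosome 11, 70459433 to 70466202, plus strand) encodes a zinc-finger protein needed for the maturation of sperm. It stood at 34.2 and 11.4 CPM in the Dnmt3a+/- male and female libraries and at 10.7 and 4.95 CPM in WT. The Dnmt3a+/- female and the WT male library were almost level, and the genotypes separated clearly only within a sex. The log2 rise of Zmynd15 was 1.45 ± 0.26 (adjusted p = 0.0427). It passed in 3 of the 8 settings that left out a library, and in the other 5 adjusted p ran from 0.058 without the WT male library to 0.22 without the Dnmt3a+/- male library. Zmynd15 overlaps the chemokine gene Cxcl16 on the opposite strand. Cxcl16 stood at 13.7 and 6.55 CPM in Dnmt3a+/- and at 7.06 and 6.63 CPM in WT (adjusted p = 0.906). As the strand setting is not given, reads of Zmynd15 and Cxcl16 cannot be told apart where they overlap.

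Plekhg3 (chromosome 12, 76530891 to 76580488, plus strand) encodes a guanine nucleotide exchange factor. It stood at 19.4 and 27.5 CPM in the Dnmt3a+/- male and female libraries and at 11.4 and 8.14 CPM in WT. Both Dnmt3a+/- libraries were above both WT libraries, and the female pair was the wider apart. The log2 rise of Plekhg3 was 1.24 ± 0.22 (adjusted p = 0.0413), with 0.76 in the male pair and 1.75 in the female pair. Adjusted p was 1 without the Dnmt3a+/- female or without the WT female library, and 0.0601 and 0.0624 without the Vwf− Dnmt3a+/- male and female library. Sptb, the erythroid spectrin gene, overlaps Plekhg3 on the opposite strand. It stood at 3.46 and 13.9 CPM in Dnmt3a+/- and at 3.24 and 4.35 CPM in WT. The log2 difference of Sptb was 1.06 ± 0.42 (adjusted p = 0.782), with 0.10 in the male pair and 1.66 in the female pair. As the strand setting is not given, reads of Plekhg3 and Sptb cannot be told apart where they overlap.

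The sequence before the start of a gene is shown for Greb1, Cfap74 and Rec8, with its CG dinucleotides, the substrate of the enzyme encoded by Dnmt3a. Whether the enzyme acts on these promoters was not tested. The sequences were taken from RefSeq on GRCm38.p6 and run 5′ to 3′ on the strand of the gene, with each CG in capitals. For Rec8 the stretch stops where GENCODE places the start of the gene. CG reads the same on both strands and was counted without overlap.
Greb1 (chr12:16800887-16801136, strand minus): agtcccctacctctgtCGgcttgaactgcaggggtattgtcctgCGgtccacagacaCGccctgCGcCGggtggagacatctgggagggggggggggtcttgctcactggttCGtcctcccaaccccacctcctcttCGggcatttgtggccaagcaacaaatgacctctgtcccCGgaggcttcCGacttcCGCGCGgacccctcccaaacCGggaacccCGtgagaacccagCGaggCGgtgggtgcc
Cfap74 (chr4:155408940-155409189, strand plus): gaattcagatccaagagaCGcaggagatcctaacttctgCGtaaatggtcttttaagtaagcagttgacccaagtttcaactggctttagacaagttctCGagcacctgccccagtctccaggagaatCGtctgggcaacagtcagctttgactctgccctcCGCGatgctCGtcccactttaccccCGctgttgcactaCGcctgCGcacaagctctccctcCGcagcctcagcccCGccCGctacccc
Rec8 (chr14:55617916-55618036, strand plus): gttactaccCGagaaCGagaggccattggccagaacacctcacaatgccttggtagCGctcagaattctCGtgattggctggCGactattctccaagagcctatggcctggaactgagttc
The windows of 250 bases held 16 CG for Greb1, 13 for Cfap74 and 10 for Rec8, against a median of 14 over 14864 windows, of which 98.2% held at least 1. At least as many as in Greb1 were found in 44.7% of windows, and the corresponding shares were 55.1% for Cfap74 and 64.5% for Rec8. A second window of Cfap74, which is not shown, held 15 CG, and 48% of windows held at least as many. Greb1 also has a second window, which is not shown. The shorter stretch printed for Rec8 holds 5 of its 10 CG. Methylation was not measured in these libraries. The stretch shown for Cfap74 lies within 5830444B04Rik, the overlapping gene on the other strand.

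Across genes the male and the female pair were almost uncorrelated. Over 10176 genes whose mean log2 CPM was above 3, the log2 difference of the male pair had a Pearson r of 0.007 and a Spearman rho of −0.012 with that of the female pair. The pairs share no library, and the correlation is across genes, which are not independent replicates. The SD of the differences was 0.205 in the male pair and 0.368 in the female pair, and 9 genes differed by over 2-fold in the male pair, 164 in the female pair and 5 in both. Over all 15917 tested genes, 7772 had the same sign in both pairs (48.8%).

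**Figure D2:**
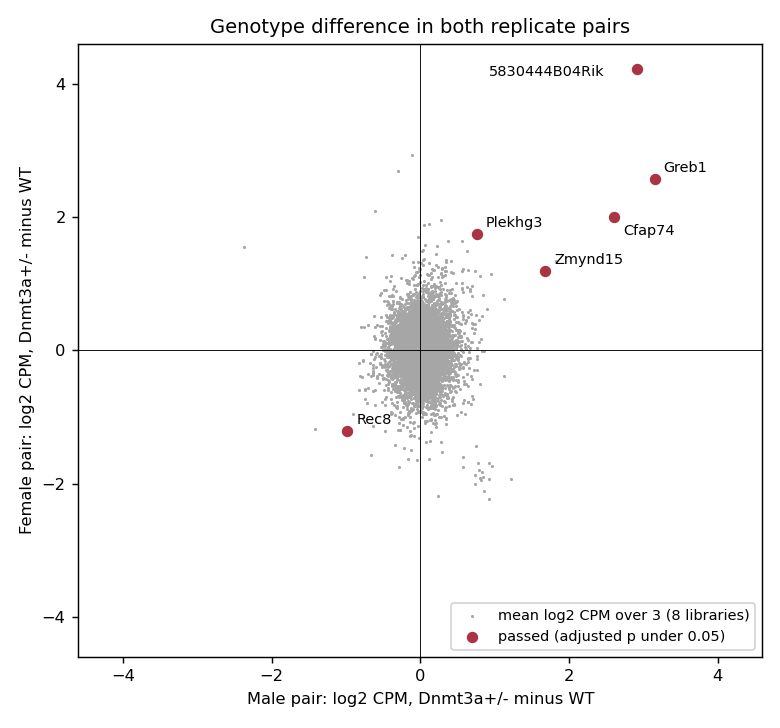
Log2 difference of CPM between Dnmt3a+/- and WT in the male pair (x axis) and the female pair (y axis) for 10176 genes whose log2 CPM averaged above 3 in the 8 libraries (grey), with the 6 genes that passed in red. The grey cloud is wider along the y axis (SD 0.368 against 0.205) and has no slope, and a group that includes small nucleolar RNA genes lies at the lower right.

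The female difference also moved with the exon length of the gene. From the fifth of genes with the shortest exons to the fifth with the longest, the median log2 difference of the female pair was −0.20, −0.07, 0.00, 0.06 and 0.13. In the male pair it was 0.06, −0.01, 0.00, −0.01 and −0.01. Medians centred by exon length are given below for the lists of histone, ribosomal protein, oxidative phosphorylation and G2/M genes.

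The genes next in line did not pass. Among the genes of smallest p in the higher direction, the dynein heavy chain gene Dnah8 stood at 98.5 and 112 CPM in Dnmt3a+/- and at 62.2 and 58.7 CPM in WT (log2 difference 0.80 ± 0.15, adjusted p = 0.0568). The base excision repair gene Neil3 stood at 18.3 and 32.6 against 11.8 and 14 CPM (adjusted p = 0.0888), and the peptide transporter gene Slc15a2 at 39.7 and 18.4 against 11.2 and 7.23 CPM (adjusted p = 0.155). In each of these genes both Dnmt3a+/- libraries were above both WT libraries. Zfp783, which GENCODE annotates as a transcribed pseudogene, and the GTPase-activating gene Arhgap33 had log2 differences of 0.88 and 0.97. Their adjusted p were 0.0652 and 0.111. For Zfp783 the genotypes overlapped, at 73.7 and 49.5 CPM in Dnmt3a+/- and 50.2 and 21.5 CPM in WT.

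The remaining genes that the same rule named in the higher direction were Casc5, a scaffold of the kinetochore, Mybl2, a transcription factor of late cell-cycle genes, Fanca of the Fanconi anaemia pathway, the nuclease gene Ankle1 and the muscle gene Neb. Their log2 differences ran from 0.72 for Mybl2 to 0.95 for Ankle1, and their adjusted p from 0.196 for Casc5 to 0.261 for Neb.

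In the lower direction the same rule named Zfp951, Kbtbd11, Cd74, Tjp1, Slfn2, Epcam, Ncam2, Gbp9, Klrb1c, Bambi, H2-Aa, Trib3 and Fam169a, and none of these 13 passed. Slfn2, a Schlafen gene that keeps lymphocytes quiescent, stood at 61.9 and 54.2 CPM in Dnmt3a+/- and at 96.8 and 82.4 CPM in WT (log2 difference −0.62 ± 0.14, adjusted p = 0.196). Epcam, an epithelial adhesion gene, had a log2 difference of −1.60 ± 0.37 (adjusted p = 0.255), and its WT libraries were themselves far apart at 9 and 23.6 CPM. The junction gene Tjp1, which encodes ZO-1, stood at 31.8 and 24.2 against 49.7 and 53 CPM (adjusted p = 0.196). Bambi, a decoy receptor of the TGF-beta pathway, stood at 5.44 and 5.32 against 11.2 and 12.4 CPM (adjusted p = 0.282).

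With DESeq2 in place of edgeR, 14 genes passed, 9 higher and 5 lower. These were the 6 genes above with Dnah8, Zfp783, Neil3, Arhgap33, Zfp951, Cd74, Kbtbd11 and Slfn2, whose DESeq2 adjusted p ran from 0.000552 for Dnah8 to 0.0462 for Slfn2. With limma on deposited TPM values none of the 6 passed (adjusted p 0.114 to 0.647). The 4 genes that did pass there were the microRNA genes Mir142b, Mirlet7g, Mir7660 and Mir7030, which are named because the count is small.

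No lower transcript level was measured for the targeted gene. Dnmt3a, which lies on chromosome 12 (3806007 to 3914443), gave 179 and 279 CPM in the Dnmt3a+/- male and female libraries and at 175 and 203 CPM in WT. The male libraries were level, and the Dnmt3a+/- female library was the highest of the 4. The log2 difference was 0.27 ± 0.19 (SE, adjusted p = 0.894), with 0.03 in the male pair and 0.46 in the female pair. It was −0.19 without the Dnmt3a+/- female library, so its sign rested on that library. Counts over a whole gene do not separate alleles, so they check neither the genotype nor the amount of working transcript.

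Other writers and erasers of DNA methylation did not pass either. Of 21 tested genes of this machinery, 15 had a positive log2 difference, none had an unadjusted p under 0.05, and the median was 0.12 against 0.00 over all tested genes. Dnmt3b, the second de novo methyltransferase, stood at 88.9 and 90.9 CPM in Dnmt3a+/- and at 86.6 and 79.5 CPM in WT (adjusted p = 0.941). Dnmt1, which copies methylation at replication, stood at 278 and 542 against 301 and 354 CPM (adjusted p = 0.897). Tet2, which oxidises methylated cytosine and is also mutated in clonal haematopoiesis, stood at 90.5 and 91.7 against 82.8 and 75.6 CPM (adjusted p = 0.903).

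Vwf, on which the fraction was sorted, stood at 1030 and 1200 CPM in the Dnmt3a+/- male and female libraries and at 1220 and 1410 CPM in WT. Both pairs were lower in Dnmt3a+/- by 0.23 on the log2 scale, and the difference did not pass (−0.23 ± 0.15, adjusted p = 0.893). In the list of 30 stem cell identity genes none passed and the median log2 difference was 0.00. Its member of smallest p was Ly6a, which encodes Sca1, a marker of the sort, at 27.4 and 18.1 CPM in Dnmt3a+/- and at 33.1 and 41.5 CPM in WT (adjusted p = 0.42). Both Dnmt3a+/- libraries were below both WT libraries, and the female pair was the wider apart.

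Among 39 gene lists, the 2 members that passed were Cfap74 in the list of cilium genes and Greb1. The lists are therefore described by their medians, and fewer cells of a type cannot be told apart from less RNA per cell in such bulk libraries. Over all 15917 tested genes, 8034 log2 differences were positive (50.5%) and the median was 0.00, 0.00 in the male pair and 0.01 in the female pair.

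**Figure D3:**
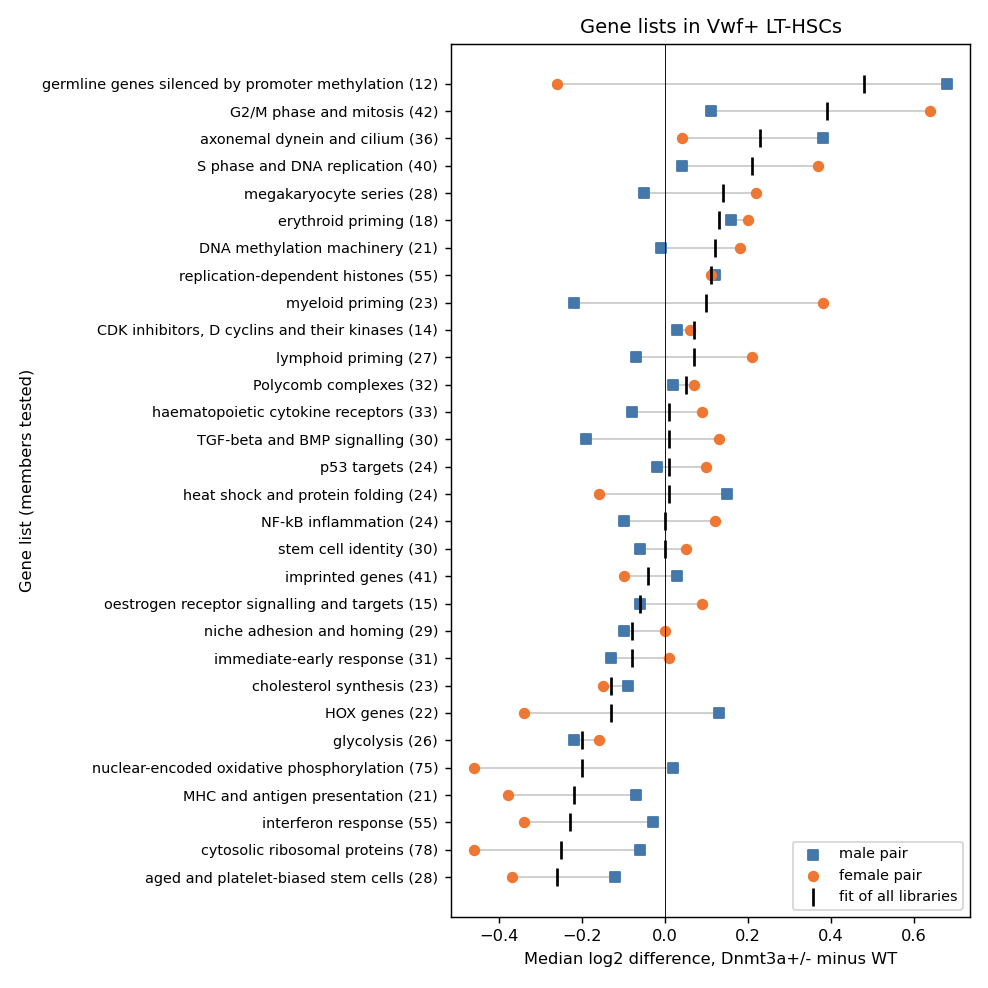
Median log2 difference between Dnmt3a+/- and WT Vwf+ cells in 30 gene lists, with the number of tested members in parentheses (blue squares the male pair, orange circles the female pair, black bars the fit of all libraries). For G2/M genes the medians are 0.11 and 0.64 in the male and the female pair, and for ribosomal protein genes −0.06 and −0.46.

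The counts of members that passed depended on the setting. Without a filter on low counts, list members passed with all libraries kept, among them Kif23 in the higher and Cd74 in the lower direction. Cd74 also passed in the Vwf+ libraries alone. A further setting left out the WT male library. Without it, 9 genes of the G2/M list and 5 of the S phase list passed in the higher direction. In the lower direction 6 ribosomal protein genes (Rps21, Rps14, Rpl17, Rpl35a, Rpl9 and Rps12, named after their values were seen) passed, with 2 genes of oxidative phosphorylation, 3 of antigen presentation and 3 of the list of aged stem cells. Of the interferon list, 1 gene then passed in the higher and 2 in the lower direction.

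Genes of the cell cycle had the widest positive shift among lists of over 20 tested genes. Of 42 tested genes of G2/M phase and mitosis, none passed, 25 had an unadjusted p under 0.05 in the higher direction, and 40 had a positive log2 difference. The median was 0.39, with 0.11 in the male pair and 0.64 in the female pair. Positive in both pairs were 29 genes, against 25.2% of all tested genes. Of all tested genes, 3.63% had an unadjusted p under 0.05 in the higher direction. The summed level of the list was 1700 and 3720 CPM in the Dnmt3a+/- male and female libraries and 1600 and 2150 CPM in WT. The Dnmt3a+/- female library was far above the other 3, while the male libraries were close.

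Kif23, a kinesin of cytokinesis, stood at 37.2 and 69.5 CPM in Dnmt3a+/- and at 31.5 and 32.3 CPM in WT (log2 difference 0.68 ± 0.17, adjusted p = 0.297). Kif20b, another mitotic kinesin, stood at 54.9 and 81.2 against 41.2 and 49 CPM (adjusted p = 0.324). Nuf2, a kinetochore subunit, stood at 35 and 50.8 against 25.6 and 34 CPM (adjusted p = 0.483). In all 3 genes both Dnmt3a+/- libraries were above both WT libraries. Leaving out single libraries moved the median of the list between 0.15 and 0.63.

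Genes of S phase and DNA replication shifted less. Of 40 tested, 36 had a positive log2 difference and none passed. Of the 40, 11 had an unadjusted p under 0.05, against 5.92% of all tested genes. The median was 0.21, with 0.04 in the male pair and 0.37 in the female pair. Clspn, an adaptor of the replication checkpoint, stood at 38.8 and 90.4 CPM in Dnmt3a+/- and at 39.1 and 38.3 CPM in WT (adjusted p = 0.755), so that the Dnmt3a+/- female library alone was high. Replication-dependent histone genes, whose reads may be shared between near-identical copies, had a median of 0.11 over 55 tested genes. Their median exon length was 539 bases, and centred by exon length the median was 0.17.

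In the Vwf− fraction the median genotype difference was −0.01 for the G2/M list and 0.01 for the S phase list. The G2/M list there summed to 2350 and 5120 CPM in the Dnmt3a+/- male and female libraries and to 2730 and 4810 CPM in WT. Both female libraries were above both male libraries in that fraction, whatever the genotype.

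Genes of protein synthesis and respiration were shifted the other way. Of 78 tested genes of cytosolic ribosomal proteins, 75 had a negative log2 difference and none passed. Of the 78, 10 had an unadjusted p under 0.05, against 5.92% of all tested genes. The median was −0.25, with −0.06 in the male pair and −0.46 in the female pair. Rpl27 of the large subunit stood at 314 and 239 CPM in Dnmt3a+/- and at 347 and 366 CPM in WT (adjusted p = 0.773). Leaving out single libraries moved the median between −0.46 and −0.07. For 75 nuclear-encoded genes of oxidative phosphorylation the median was −0.20, with 0.02 in the male pair and −0.46 in the female pair, and again none passed, with a range of −0.37 to −0.06.

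Both of these lists hold short genes, with median exon lengths of 1775.5 and 1778.5 bases, and the female difference moved with length. When each gene was set against genes of like exon length, the medians were −0.20 for ribosomal protein genes and −0.15 for oxidative phosphorylation, and 0.38 for the G2/M list. This centring was chosen after the data were seen.

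**Figure D4:**
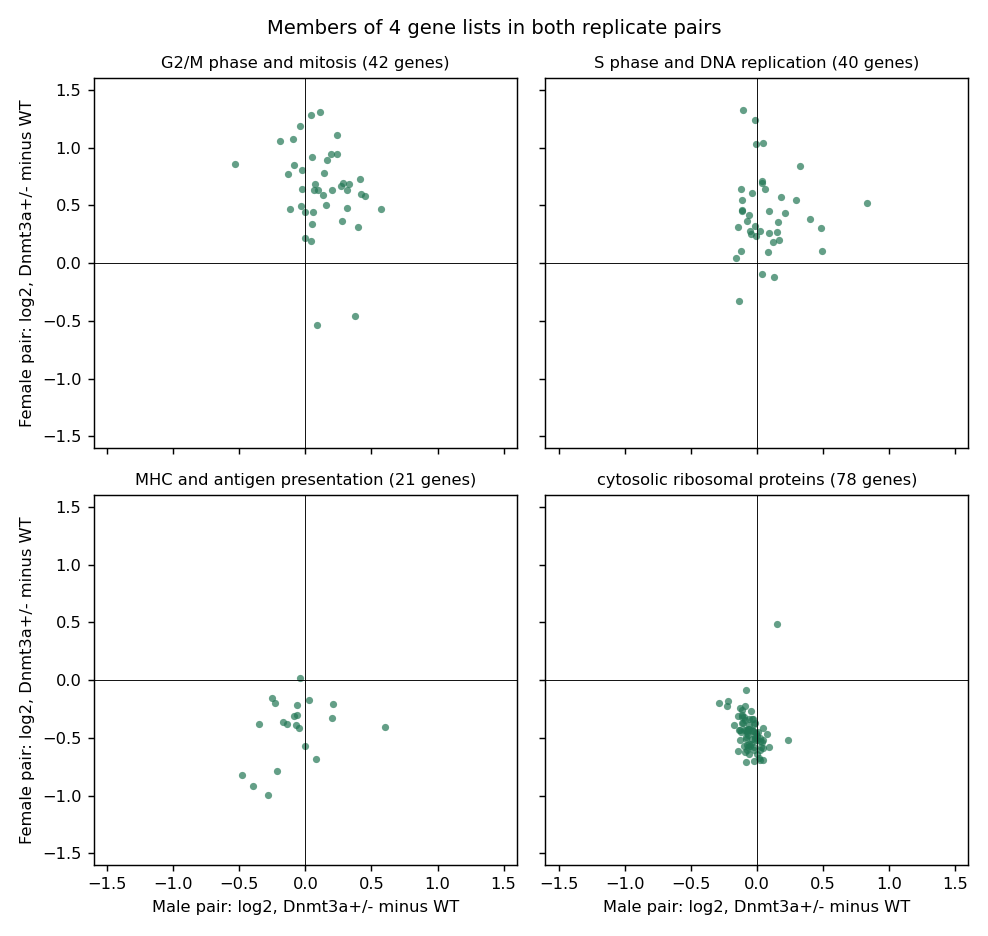
Log2 difference between Dnmt3a+/- and WT in the male pair (x axis) and the female pair (y axis) for each tested member of 4 lists, with 2 genes outside the axes. Members of the G2/M and S phase lists lie mostly above the horizontal line and ribosomal and MHC genes mostly below it, while their spread along the x axis is centred near 0.

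Genes of antigen presentation leaned to the lower side in Dnmt3a+/- cells. Of 21 tested, 20 had a negative log2 difference and none passed. Of the 21, 4 had an unadjusted p under 0.05, against 5.92% of all tested genes. The 4 were all of class II, the molecules that show peptides to CD4 T cells. Cd74, the invariant chain, stood at 101 and 68.4 CPM in the Dnmt3a+/- male and female libraries and at 141 and 121 CPM in WT (log2 difference −0.66 ± 0.14, adjusted p = 0.194). H2-Aa stood at 37.3 and 27.7 against 49.1 and 52.5 CPM (adjusted p = 0.297). H2-Eb1 and H2-Ab1 had log2 differences of −0.67 and −0.49, with adjusted p of 0.472 and 0.6.

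In each of these class II genes both Dnmt3a+/- libraries were below both WT libraries. The class II transactivator gene Ciita, outside the rule for named genes and chosen after its value was seen, stood at 9.78 and 10.1 against 12.5 and 13.1 CPM (adjusted p = 0.883). The median of the list was −0.22, with −0.07 in the male pair and −0.38 in the female pair. In Vwf− cells Cd74, H2-Aa, H2-Eb1 and H2-Ab1 were also lower in Dnmt3a+/-. Their log2 differences there were −0.65, −0.48, −0.71 and −0.44, and none passed.

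Of 55 tested genes of the interferon response, 13 had an unadjusted p under 0.05 in the lower direction and 2 in the higher, and none passed. Over all tested genes the shares were 2.29% lower and 3.63% higher. The median was −0.23, with −0.03 in the male pair and −0.34 in the female pair. The GTPase gene Iigp1 stood at 80.3 and 48.7 CPM in Dnmt3a+/- and at 88.4 and 118 CPM in WT (adjusted p = 0.6). Slfn9 went the other way from Slfn2, at 58.5 and 108 against 51.2 and 55.4 CPM (adjusted p = 0.623).

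Genes that mark aged and platelet-biased stem cells had a median of −0.26 over 28 tested genes, with 24 negative and none past the threshold. Klrb1c, which encodes the NK1.1 receptor, stood at 32.5 and 29.9 CPM in Dnmt3a+/- and at 41.2 and 80.1 CPM in WT (adjusted p = 0.282). The WT female library alone was high for Klrb1c, and the list median was −0.06 without that library. The guanine deaminase gene Gda stood at 183 and 202 against 247 and 265 CPM (adjusted p = 0.755).

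Genes of the megakaryocyte series had a median of 0.14 over 28 tested genes, with −0.05 in the male pair and 0.22 in the female pair. Of these genes, 6 had an unadjusted p under 0.05, all higher, against 3.63% of all tested genes in that direction. Ppbp and the platelet tubulin gene Tubb1, at 28.7 CPM in the Dnmt3a+/- female library and 2.63 to 3.91 CPM in the other 3, are members of this list. Without the Dnmt3a+/- male library Ppbp, Tubb1 and Thbs1 passed in the higher direction. Treml1, a receptor of platelet granules, stood at 7.81 and 10.8 CPM in Dnmt3a+/- and at 4.9 and 4.18 CPM in WT (adjusted p = 0.724). For Treml1, unlike Tubb1, both Dnmt3a+/- libraries were above both WT libraries. Markers of platelets and mature megakaryocytes summed to 291 and 451 CPM in Dnmt3a+/- and to 264 and 309 CPM in WT over 11 genes, none of which was at 0 in all 4 libraries. Their part in the result for the megakaryocyte series was not tested.

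The other lineage lists stood closer to 0. Medians were 0.13 for erythroid, 0.10 for myeloid and 0.07 for lymphoid priming, and no member passed. Cebpb, a myeloid transcription factor, stood at 53.9 and 61.1 CPM in Dnmt3a+/- and at 74.5 and 82.7 CPM in WT (adjusted p = 0.572). Flt3, a receptor of early lymphoid and myeloid progenitors, stood at 6.8 and 9.59 against 6.34 and 4.35 CPM (adjusted p = 0.773). Markers of neutrophils summed to 47.6 and 126 CPM in Dnmt3a+/- and to 101 and 60.4 CPM in WT. Markers of mast cells, basophils and eosinophils summed to 5.53 and 55.6 against 9.36 and 5.12 CPM, with 3 of 16 genes at 0 in all 4 libraries. Markers of monocytes and macrophages summed to 258 and 257 against 259 and 239 CPM, mostly from Lyz2, and none of the 16 was at 0 in all 4 libraries. Their median log2 difference was 0.69, with −0.03 in the male pair and 0.98 in the female pair. Csf1r and Ly6c2, which are also in the myeloid list, stood at 9.7 and 8.43 CPM in the Dnmt3a+/- female library and at no more than 4.18 and 1.84 CPM in the other 3. The part of these cell types in the lineage results was not tested.

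Genes of axonemal dyneins and cilia, the list that holds Cfap74, had a median of 0.23 over 36 tested genes, with 0.38 in the male pair and 0.04 in the female pair. On TPM values, relative to all tested genes, the median was 0.03, and it was 0.02 with counts without the WT male library. In this list 3 genes, Cfap74, Dnah8 and Wdr90, had an unadjusted p under 0.05, against 5.92% of all tested genes. Wdr90, a gene of centrioles and cilia, stood at 39.1 and 43.1 CPM in Dnmt3a+/- and at 32.2 and 21.8 CPM in WT (adjusted p = 0.42). Of 29 germline genes that promoter methylation keeps silent in other tissues, only 12 were expressed highly enough to be tested, and none passed. Their median was 0.48 with counts, and −0.03 on TPM values relative to all tested genes. The list summed to 27.6 and 22.9 CPM in Dnmt3a+/- and to 24.2 and 44.1 CPM in WT, and its highest value came from the WT female library.

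The lists of imprinted and Polycomb genes had medians near 0. The median was −0.04 over 41 imprinted genes and 0.05 over 32 genes of Polycomb complexes, with no gene past the threshold. The Polycomb methyltransferase gene Ezh2 stood at 69.6 and 86.8 CPM in Dnmt3a+/- and at 55.5 and 68.7 CPM in WT (adjusted p = 0.809). The 22 tested HOX genes had a median of −0.13, with 0.13 in the male and −0.34 in the female pair. Hoxa5 stood at 41.6 and 27.8 against 32.8 and 19.7 CPM (adjusted p = 0.773) and Hoxc6 at 3.77 and 1.85 against 4.9 and 9.22 CPM (adjusted p = 0.773).

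Signalling and stress lists were close to 0 as well. Medians lay between −0.08 and 0.01 for immediate-early, heat shock, p53 target, NF-kB, TGF-beta and BMP, cytokine receptor and niche adhesion genes. The BMP target Id1 stood at 1.01 and 1.09 against 3.42 and 2.89 CPM (adjusted p = 0.825). Id2, also a BMP target, stood at 8.42 and 6.7 against 15.2 and 11 CPM (adjusted p = 0.773). Other members of the list were higher, with log2 differences of 0.45 for Tgfbi and 0.26 for Bmpr2. For Id3 and Smad6, which are outside the rule for named genes, they were 0.58 and 0.25. None of these genes passed. The immediate-early receptor gene Nr4a2 stood at 26.5 and 27.2 against 44.7 and 40.8 CPM (adjusted p = 0.483). Glycolysis genes had a median of −0.20 over 26 tested genes, and the male and female pairs were alike at −0.22 and −0.16. Cholesterol synthesis genes had a median of −0.13 over 23.

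The Vwf− libraries gave a second look at the same genotypes in other libraries, though perhaps from the same pools. There, 2 genes passed (0.0126%), Greb1 in the higher and Slfn2 in the lower direction, and 519 had an unadjusted p under 0.05 (3.26%). Greb1 stood at 5.47 and 12.7 CPM in the Vwf− Dnmt3a+/- male and female libraries and at 0.637 and 0.901 CPM in Vwf− WT (log2 difference 3.48 ± 0.42, adjusted p = 0.00113). Slfn2 stood at 27.3 and 19.6 against 47.8 and 41.2 CPM (−0.93 ± 0.14, adjusted p = 0.0148). All 6 genes that passed in Vwf+ cells had the same sign in Vwf− cells, where adjusted p was 0.26 for Cfap74, 0.129 for Rec8, 0.0867 for Zmynd15 and 1 for 5830444B04Rik and Plekhg3.

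The 30 genes of smallest p in Vwf+ cells, 15 in each direction, were chosen by the Vwf+ contrast and then read in the Vwf− contrast of the same fit. The Vwf− libraries entered the error estimate behind that choice, so the reading is not independent of it. All 15 higher genes and 12 of the 15 lower genes had the same sign there. In Vwf− cells 19 of the 30 had an unadjusted p under 0.05, against 3.26% of all tested genes. Over all tested genes 57.8% had the same sign in both fractions. The 3 genes of opposite sign were Epcam, Klrb1c and Bambi, with log2 differences of 0.055, 0.22 and 0.08 in Vwf− cells. Over the 10176 genes of mean log2 CPM above 3, the genotype differences of the fractions had a Pearson r of 0.26 and a Spearman rho of 0.25.

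**Figure D5:**
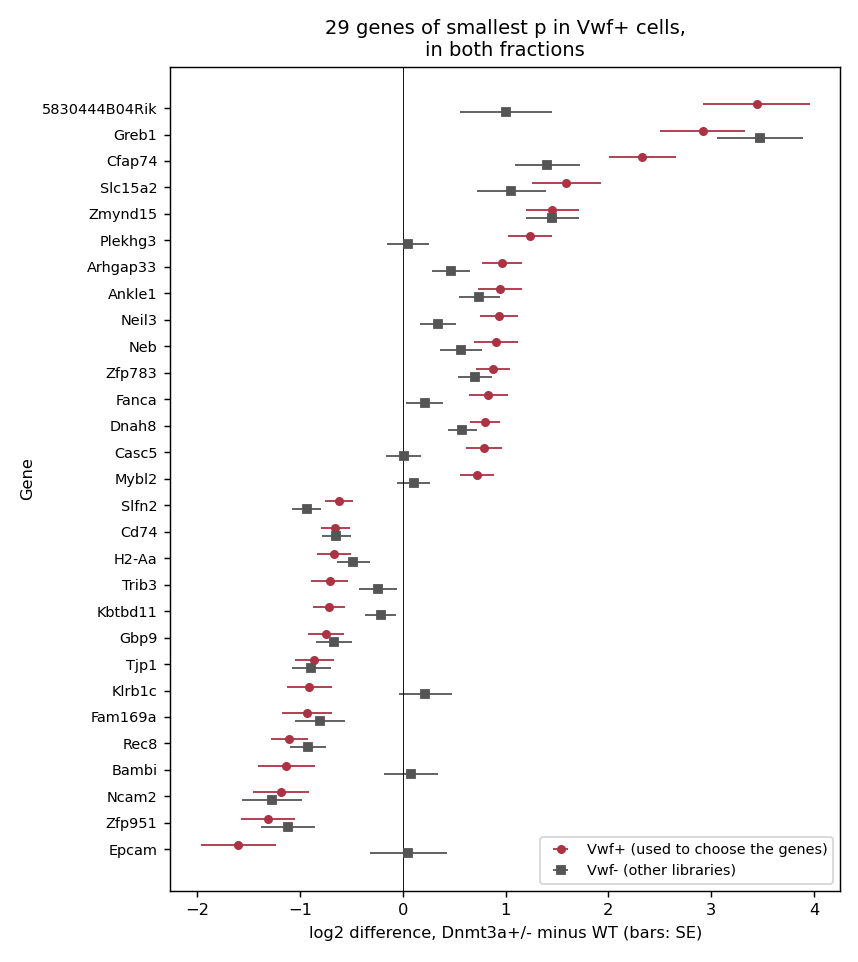
Log2 difference between Dnmt3a+/- and WT with its SE in Vwf+ cells (red circles) and Vwf− cells (grey squares) for 29 of the 30 genes of smallest p in Vwf+ cells. In Vwf− cells 26 of the 29 lie on the same side of 0, and Plekhg3 is near 0 there.

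Whether a genotype difference depended on the fraction was tested with the interaction of genotype and Vwf status. No gene passed in edgeR (0%), 365 had an unadjusted p under 0.05 (2.29%), and DESeq2 and limma gave 0 as well, with 339 and 367. Without the block it was also 0, with 159 unadjusted (0.999%). For Plekhg3 the difference in Vwf− cells was 0.05 ± 0.20, and the interaction was 1.19 ± 0.29 on the log2 scale with an unadjusted p of 0.000656 and an adjusted p of 1. For 5830444B04Rik the unadjusted interaction p was 0.00187 and the adjusted p was also 1. The interaction count was not 0 under every setting: 11 genes passed with blocks of 4 pools, 30 without a filter on low counts, 58 without the Vwf+ WT male library and 18 without the Vwf− WT male library.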

How the data were processed

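Total RNA of sorted cells was sequenced in 8 libraries. Tools listed per the submitters' processing notes, with neither role nor version, are featureCounts, STAR, Trim Galore and DESeq2, and the build is mm10. The annotation, the strand setting and the use of molecular identifiers are not given in the sources used here. The authors deposited whole-number counts of 24421 gene symbols and a table of TPM values.

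edgeR 4.0.16 in R 4.3.3 was run on these counts. Low genes were removed by filterByExpr (minimum count 10), TMM factors lay between 0.958 and 1.06, and all 8 libraries entered a model of 4 group means with the replicate number as a block. It left 3 residual degrees of freedom (4 without the block). Contrasts were Dnmt3a+/- against WT in Vwf+ cells, the same in Vwf− cells, and their difference. P-values were adjusted by Benjamini-Hochberg over the 15917 tested genes and called at 0.05. SE is the size of the log2 change over the root of its F statistic. CPM are counts per 1e+06 counts of the scaled library, and pair differences are of log2 CPM with a prior count of 2. Scripts were tested on simulated data.

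The block was used because the comparison pairs libraries by replicate number. Pools of one number are of one sex per the labels, and deviations between replicates correlated across 15917 genes with r of 0.13 to 0.30 over the 6 pairs of groups. Without genes of X and Y (15380 genes) r was 0.09 to 0.27. The lowest value of each was that of the Vwf+ groups compared here. Alternatives were no block, DESeq2 1.42.0, RLE scaling, other filters, limma 3.58.1 on log2(TPM + 0.5), the Vwf+ libraries alone, blocks of 4 pools, a prior count of 0.5 for the pairs, leaving out each library, and, chosen after the data were seen, centring by exon length.

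The comparison, the 39 gene lists and the tests were chosen with earlier results of these data known. Named genes were Dnmt3a, Dnmt3b, Dnmt1, Tet2 and Vwf, the 15 genes of smallest p in each direction with 1 sign in both pairs, the 5 largest changes in each direction among genes that passed, up to 4 members of smallest p of each list and every member that passed, and the 5 genes of smallest interaction p in each direction. Sort markers are also named. Coordinates are of GENCODE M21 on GRCm38. RefSeq promoters matched 11795 of the tested genes by symbol (74.1%) and 3 of the 6 that passed, too few for a check over the set, so single promoters are shown. A gene that the rule names is not reported here.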

Additional observations from a re-analysis of the deposited data

How the results depend on the processing

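The count of genes that passed between the genotypes in Vwf+ cells was 6 (5 higher, 1 lower) and depended on the pairing of libraries: without the replicate block it was 0, with 363 unadjusted, and in the Vwf+ libraries alone it was 38 with the block (25 higher, 13 lower) and 0 without it, with 400 unadjusted. DESeq2 gave 14 (9 higher, 5 lower), RLE scaling 6, no filter on low counts 106 (62 higher, 44 lower), a CPM of at least 1 in at least 4 libraries 3 (all higher), and limma on TPM 4 (all higher), none of them among the 6. Leaving out single libraries gave 1 to 216. Of the Vwf− libraries, leaving out the Dnmt3a+/- male gave 3, the WT male 11 and the WT female 10. The cause of these differences was not tested. A setting without 1 library assumes that the lone library of its group varies like the others.

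The interaction count was 0, and 0 without the block, with RLE scaling, DESeq2, limma or the stricter filter. It was 30 without a filter, 11 with blocks of 4 pools, and 0 to 58 when single libraries were left out, with 58 without the Vwf+ WT male and 18 without the Vwf− WT male library. The correlation of the male and female pairs was 0.003 over all tested genes with a prior count of either 2 or 0.5.

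When single libraries were left out, the sign of named log2 differences turned for Dnmt3a (−0.19 to 0.64), Tubb1 (−0.62 to 3.43), Epx (−0.49 to 11.1) and Prg2 (−2.02 to 3.87), in each case without the Dnmt3a+/- female library. It also turned for Dnmt1 (−0.08 to 0.58) and Tdrd9 (−1.29 to 0.18) without the WT female library, and for Matn4 (−0.46 to 0.72) without the Dnmt3a+/- male (−0.10) or the WT male library. On TPM values the median of all tested genes was 0.13, and relative to it the lists had medians of 0.40 for G2/M, −0.24 for ribosomal protein and −0.22 for MHC genes; of those lists none changed sign. The cilium list was at 0.03 on that scale, against 0.23 with counts.

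With 2 pools a group and sex shared by the pairs, a genotype difference of 1 sex cannot be told apart from that of 1 pool. Errors were widest for genes of low counts.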

Other observations

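Small nucleolar RNAs, which guide the modification of ribosomal and spliceosomal RNA, formed a group of their own in the pair differences. These genes were chosen after their values were seen. Snora81 stood at 64.1 and 78.2 CPM in the Dnmt3a+/- male and female libraries and at 38.4 and 314 CPM in WT, and Snord17 at 181 and 217 against 105 and 749 CPM. Snora23 stood at 30.8 and 29.9 against 16.3 and 141 CPM. In all 3 the WT female library was the highest and the WT male library the lowest, so the genotypes overlapped, and none passed (edgeR adjusted p of 0.825 for Snora81, 0.841 for Snord17 and 0.812 for Snora23). All 3 passed in the lower direction without a filter on low counts and without the WT male library.

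The level of Mpo differed within each genotype. Mpo, the myeloperoxidase gene, chosen after its value was seen, stood at 15 and 105 CPM in the Dnmt3a+/- male and female libraries and at 78.1 and 35.7 CPM in WT. Its log2 difference was −2.37 in the male pair and 1.55 in the female pair. Without the Dnmt3a+/- female library Mpo passed in the lower direction with −2.26 (edgeR adjusted p = 0.000323), and without the Dnmt3a+/- male library in the higher direction with 1.41 (edgeR adjusted p = 0.0105). Some other neutrophil genes had their highest level in the Dnmt3a+/- male library, among them Ngp at 9.65 CPM and S100a9 at 3.77 CPM, against at most 1.12 and 1.29 CPM in the other 3 libraries. The thrombospondin gene Thbs1, also chosen after its values were seen, stood at 2.28 CPM in the Dnmt3a+/- and 3.51 CPM in the WT male library and at 141 and 33 CPM in the female libraries. Both female libraries were above both male libraries, and the log2 difference was −0.61 in the male and 2.09 in the female pair (edgeR adjusted p = 0.759). Thbs1 passed in the Vwf+ libraries alone (1.15, edgeR adjusted p = 9.48e-05), without a filter on low counts (1.31, 3.84e-08) and without the Dnmt3a+/- male library (2.13, 0.00153).

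Among the genes of smallest interaction p, the potassium channel gene Kcnb2 stood at 3.68 and 5.61 CPM in Vwf+ Dnmt3a+/- and at 4.86 and 14.3 CPM in Vwf+ WT, against 0.287 and 0.766 CPM in Vwf− Dnmt3a+/- and 0 and 0.06 CPM in Vwf− WT. The matrix gene Matn4 stood at 93.2 and 62.8 against 57.7 and 84.2 CPM in Vwf+ cells and at 11.6 and 8.27 against 5.2 and 2.79 CPM in Vwf− cells. Both genes were lower in the Vwf− fraction in every library. The mitotic spindle gene Aspm stood at 40.1 and 89.7 against 32.7 and 37.8 CPM in Vwf+ cells and at 56.5 and 122 against 63.5 and 140 CPM in Vwf− cells. In Vwf− cells Aspm was higher in both female libraries than in both male libraries. The adjusted interaction p of the edgeR quasi-likelihood test was 0.913 for Kcnb2 and 1 for Matn4 and Aspm.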
